A study of Mus musculus with 24 samples.

Results

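The response to interleukin-4 (IL-4) of bone marrow derived macrophages with a myeloid deletion of the glucose transporter GLUT1 was described from 8 one-colour Agilent mouse microarrays of the 24 in the series: 4 arrays of cells activated with 10 ng/ml IL-4 for 24 h (KO M2) against 4 of unstimulated cells kept untreated for the same 24 h (KO M0). The arrays were chosen by their labels alone. All cultures were first grown over 6 days in M-CSF, the growth factor of macrophages, at 20 ng/ml. KO cells came from mice named Slc2a1M-/- (LysMCre X Slc2a1fl/fl), which carry floxed Slc2a1 and a Cre recombinase expressed from the lysozyme gene Lyz2, active in macrophages and other myeloid cells. The comparison genotype (WT) was the Slc2a1 fl/fl floxed control, of which 4 M0 and 4 M2 arrays, treated alike, serve for 1 comparison at the end. Both genotypes carry the floxed allele, and by the labels only the KO carries Cre. The sources do not say how many mice gave the 4 biological replicates of a group, so p-values measure a spread between samples. The fit pools that spread over all 24 arrays of the series, including groups not described here. The p-values and SE are therefore not those of the 8 arrays alone. The level of a gene in such bulk RNA does not tell fewer expressing cells from less RNA per cell.

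IL-4 is a product of T helper 2 cells, basophils, eosinophils and mast cells. It binds a receptor of Il4ra paired with the common gamma chain or with Il13ra1, whose Janus kinases phosphorylate the transcription factor STAT6, which then enters the nucleus and switches on genes directly. In macrophages this gives the alternatively activated (M2) state, known for arginase, chitinase-like and resistin-like proteins, chemokines that draw T helper 2 cells and eosinophils, cell fusion, and a reliance on mitochondrial oxidation. GLUT1 is the main carrier by which macrophages take up glucose.

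Values are log2 intensities relative to the 75th percentile of the gene spots of the array, so 0 lies at that percentile, and differences are log2 KO M2 minus KO M0 ± the SE of the limma fit. Values of 4 arrays are listed in the order of replicates 1 to 4. A gene was called when its limma p, adjusted by Benjamini-Hochberg over all 25644 genes tested, was under 0.05. The 75th percentile lay at 2644 to 4362 intensity units on the KO M0 arrays and at 3123 to 3826 on the KO M2 arrays. Well above background were 64.8% to 71.4% of gene probes in KO M0 and 53.0% to 61.4% in KO M2, ranges that do not overlap. The part of this gap in the counts below was not tested. The 24 arrays were grouped here into 4 sets by their place on 3 slides, each with 1 array of every group. The series design names no such sets and no pairing. Sets 1 to 3 are the first 6 arrays of slides 1 to 3, and the 4th set joins the last 2 arrays of each slide. The 4th set, which holds KO M0 replicate 2 (slide 1) and KO M2 replicate 4 (slide 3), stands apart. Xist, the RNA that coats the inactive X chromosome, was at -8.24, -1.05, -8.95 and -7.32 in KO M0 and -8.18, -7.35, -7.76 and -1.21 in KO M2. The Y-linked Eif2s3y was at 1.48, -8.85, 1.3 and 1.4 in KO M0 and 1.59, 1.37, 1.45 and -8.51 in KO M2. Ddx3y (KO M0 -0.77, -8.95, -1.05 and -1.03, KO M2 -0.81, -1.01, -0.78 and -8.63) and Uty (KO M0 -2.60, -7.97, -2.91 and -2.45, KO M2 -2.92, -3.16, -2.82 and -8.02) followed Eif2s3y, whereas the brightest of 4 probes of the Y-linked Kdm5d was well above background on all 8 arrays and the others on 6, 3 and 6. Each state holds 1 such array.

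The targeted gene and the locus of Cre came first. Slc2a1 was measured at 2.52, 1.35, 1.98 and 1.91 in KO M0 and at 3.05, 2.50, 2.58 and 2.48 in KO M2. The difference of 0.72 ± 0.34 did not pass the test (limma adjusted p = 0.175), although all 4 sets gave a positive value. With the set as a block it passed (limma adjusted p = 0.01), and without the 4th set it did not (limma adjusted p = 0.247). WT M0 was at 3.19, 1.52, 2.1 and 2.14 and WT M2 at 3.77, 2.51, 2.72 and 2.36, so the genotypes overlap in both states. The sources do not say which exons Cre removes, so this probe, which lies late in the transcript, does not check the deletion. Lyz2, lysozyme M and the seat of the Cre insertion, was at 4.14, 5.82, 3.91 and 3.99 in KO M0 and at 2.87, 2.51, 2.54 and 4.29 in KO M2. It fell by 1.41 ± 0.38 (limma adjusted p = 0.015), and the groups overlap through KO M2 replicate 4 of the 4th set. A dimmer probe of Lyz2, also well above background on all 8 arrays, gave -1.48 (limma adjusted p = 0.0283 over probes). The near-identical Lyz1 (lysozyme P) fell by 1.05 ± 0.26 (limma adjusted p = 0.0101), and probes of the 2 genes can share their RNA.

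IL-4 changed 3536 genes in KO macrophages, 1632 higher and 1904 lower. This is 13.8% of the 25644 tested, 6.36% higher and 7.42% lower. The rises reached further: 73 called genes were at least 16-fold higher, against 4 that were at least 16-fold lower. At 2-fold or more the counts were 664 and 773, and the median difference of all genes tested was -0.094. Of the 3478 called genes with a value in every set, 3427 (98.5%) had the same sign in all 4 sets, as had 48.1% of all genes. The calls were made on these same arrays and favour a common sign, so the higher share is no separate support for them. Of all genes tested, 8.02% had every M2 array above every M0 array and 11% had every one below. With the set as a block 6164 genes were called, 2551 higher and 3613 lower. Which direction held more genes depended on the setting. Higher against lower were 4235 against 1972 without the filter on dim probes, 1733 against 1694 with quantile normalization, 1652 against 1389 with outlier spots kept, 970 against 875 at an adjusted p under 0.01 and 1511 against 1462 without KO M0 replicate 4.

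The largest rise among the genes that met the naming rule was in Arg1, arginase 1, which turns arginine into ornithine and urea. It was at -2.02, 0.37, -1.15 and -2.06 in KO M0 and at 6.16, 6.43, 6.42 and 6.38 in KO M2. Every M2 array was above every M0 array, and within M0 the array of the 4th set was the highest. The rise was 7.56 ± 0.38 (limma adjusted p = 5.54e-11), or 189-fold. Il31ra, a subunit of the interleukin-31 receptor, stood at -7.05, -5.96, -6.66 and -5.87 and 1.04, 1.09, 1.11 and 1.1, a rise of 7.47 ± 0.39, with 3 of the 4 M0 arrays well above background. Its probes did not move alike, with differences of 0.72 and 2.15 for 2 of the other 4. Flt1, a receptor of vascular endothelial growth factor, rose by 6.73 ± 0.42, from -2.64, -3.22 and -2.81 on the 3 M0 arrays with a valid spot to 4.11, 4.11, 3.91 and 3.21.

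Secreted and adhesion proteins followed. Edn1, the vessel-constricting peptide endothelin 1, was not well above background on any M0 array (-7.24, -8.10, -8.33 and -8.71) and was at 0.39, -1.82, -1.93 and -2.78 in M2, at least 39.0-fold higher (limma adjusted p = 3.94e-05). This bound sets the M2 mean against, for each M0 array, the higher of its dimmest signal still well above background and the signal of the probe itself. Adipoq, the hormone adiponectin known from fat cells, was at least 37.4-fold higher, with -1.48, -1.86, -1.62 and -1.56 in M2 and no M0 array well above background. The homeobox gene Msx3 was likewise at least 26.6-fold higher. Pdcd1lg2 (PD-L2), a ligand of the inhibitory T cell receptor PD-1, went from -4.72, -3.23 and -4.95 on 3 valid M0 arrays to 1.90, 1.75, 1.58 and 3.05, a rise of 6.37 ± 0.50. Cdh1, the adhesion protein E-cadherin, rose by 6.30 ± 0.63 and was well above background on 1 of 4 M0 arrays and on all M2 arrays. Cldn11, a tight junction protein, rose by 6.04 ± 0.45, and the membrane proteins Tarm1 and Tmem26 rose by 6.45 ± 0.66 and 6.24 ± 0.38. Tarm1 was well above background on 2 M0 arrays. Il4i1, a secreted amino acid oxidase first found as an IL-4 induced gene, went from 0.27, -0.83, -0.62 and -0.61 to 5.99, 5.39, 4.96 and 5.02, 55.3-fold. The M2 and M0 arrays of all 15 genes did not overlap, which the choice of these genes required.

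**Figure D1:**
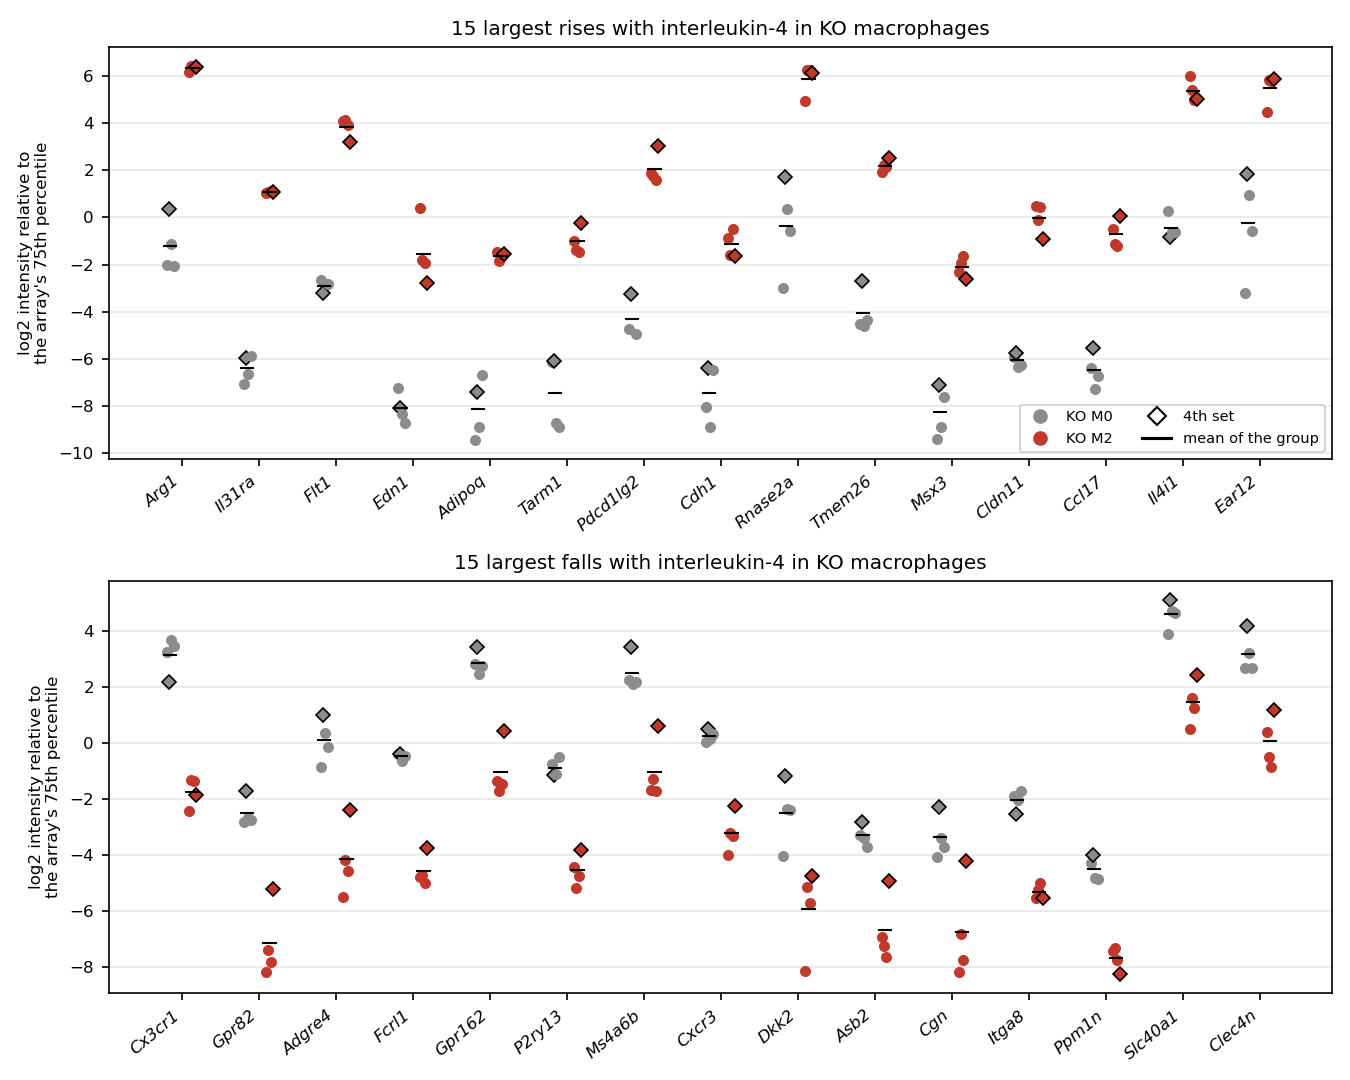
Log2 intensity relative to the array's 75th percentile on each KO M0 (grey) and KO M2 (red) array for the 15 largest rises (top) and 15 largest falls (bottom) among called genes. Diamonds mark the 4th set and bars the group mean; the groups do not overlap for any of the 30 genes, Arg1 rises by 7.56 and Cx3cr1 falls by 4.91.

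STAT6 is known to bind a palindrome of TTC and GAA with 4 bases between them. Of the 15 largest rises, 12 had a promoter sequence in the RefSeq table used (build GRCm38.p6, 250 bases before to 50 after the gene start), and 4 of these held TTCNNNNGAA, which reads alike on both strands. They are printed 5′ to 3′ on the strand of the gene, with the palindrome in capitals, to show where it lies in genes whose level changed most. Edn1 lies on the + strand, chr13:42301226-42301525, with the match starting 185 bases before the gene start. Pdcd1lg2 lies at chr19:29410669-29410968 with a match 82 bases before it, Tmem26 at chr10:68723496-68723795 with matches 227 and 41 bases before it, and Ccl17 at chr8:94810203-94810502 with a match 154 bases before it, all on the + strand.
Edn1: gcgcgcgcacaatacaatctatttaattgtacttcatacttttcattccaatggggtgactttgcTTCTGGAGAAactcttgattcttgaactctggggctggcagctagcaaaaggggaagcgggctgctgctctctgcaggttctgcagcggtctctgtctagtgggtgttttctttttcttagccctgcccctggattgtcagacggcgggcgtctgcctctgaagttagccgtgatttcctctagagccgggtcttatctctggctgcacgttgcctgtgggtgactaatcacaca
Pdcd1lg2: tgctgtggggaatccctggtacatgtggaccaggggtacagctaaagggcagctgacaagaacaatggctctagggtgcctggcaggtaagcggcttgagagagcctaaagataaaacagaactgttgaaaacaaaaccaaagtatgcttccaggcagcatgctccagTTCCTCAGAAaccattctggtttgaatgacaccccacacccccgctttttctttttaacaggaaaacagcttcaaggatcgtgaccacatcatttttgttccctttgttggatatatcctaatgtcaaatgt
Tmem26: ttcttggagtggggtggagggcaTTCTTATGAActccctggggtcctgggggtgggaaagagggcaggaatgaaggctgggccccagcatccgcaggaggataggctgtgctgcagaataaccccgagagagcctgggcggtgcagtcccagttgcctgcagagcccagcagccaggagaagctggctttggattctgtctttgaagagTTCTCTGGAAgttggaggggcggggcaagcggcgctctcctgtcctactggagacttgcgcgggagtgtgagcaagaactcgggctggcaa
Ccl17: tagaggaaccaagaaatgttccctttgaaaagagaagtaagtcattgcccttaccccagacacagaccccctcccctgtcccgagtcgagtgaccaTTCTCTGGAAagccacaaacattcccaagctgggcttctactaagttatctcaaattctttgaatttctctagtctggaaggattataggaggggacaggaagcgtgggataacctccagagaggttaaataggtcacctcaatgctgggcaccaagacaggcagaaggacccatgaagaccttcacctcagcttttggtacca
The palindrome stood in 8.01% of the 27025 genes with a promoter in the table and in 7.11% of the 14233 tested genes matched by symbol. Among genes called higher it was in 85 of 1059 (8.03%), and among genes called lower in 80 of 1229 (6.51%). A match is a run of letters and does not show binding.

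Counts within lists are to be read beside the shares of all genes tested, 6.36% called higher and 7.42% called lower. In the list of IL-4 signalling genes, 4 of 18 measured genes rose and 4 fell, and the median difference was 0.017. The rises were the feedback inhibitors of cytokine receptors and an adaptor. Socs1, which blocks Janus kinases, went from -2.02, -0.91, -2.32 and -2.33 to 4.00, 3.67, 3.22 and 3.77, a rise of 5.56 ± 0.26 (limma adjusted p = 3.59e-11). Socs2 and Cish, of the same family, rose by 5.62 ± 0.28 and 5.52 ± 0.41. Irs2, the adaptor that links the receptor to phosphoinositide 3-kinase, rose by 1.05 ± 0.26. Of the receptor chains, Il13ra1 fell by 2.12 ± 0.41, from -0.66, 1.24, -0.064 and -0.47 to -2.13, -2.44, -2.72 and -1.13. Il4ra fell by 0.94 ± 0.25 on its brighter probe (limma adjusted p = 0.0149), with overlapping groups. A dimmer Il4ra probe, also well above background on all 8 arrays, gave 0.051 (limma adjusted p = 0.957 over probes). The phosphatase Ptpn6 fell by 0.58 ± 0.10 and the kinase subunit Pik3r1 by 0.86 ± 0.23. Pik3r1 was no longer called without the 4th set (limma adjusted p = 0.0757). Stat6 itself was at 2.67, 2.67, 2.93 and 2.78 and 2.75, 2.82, 2.87 and 2.75, a difference of 0.037 ± 0.097 with a 95% interval of -0.16 to 0.24. The gamma chain Il2rg and the kinase Jak3 were not called, with 0.32 ± 0.21 and -0.23 ± 0.19.

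Of the 18 transcription factors and cofactors linked to the M2 state, 10 rose and 1 fell, with a median of 0.90 against -0.094 for all genes. The list was chosen with known M2 factors in mind and earlier results of these data known, so this gap is no separate support. Irf4, a factor that acts on many M2 genes, went from -2.18, -1.78, -1.91 and -1.91 to 3.18, 2.90, 2.80 and 3.00. The M2 arrays lay within less than 0.5 of each other and far above the M0 arrays, and the rise of 4.92 ± 0.23 had a limma adjusted p of 4.07e-11. Batf3, a partner of Irf4 known from cross-presenting dendritic cells, went from -0.42, -0.37, -0.57 and -0.64 to 3.92, 4.00, 3.79 and 3.76, a rise of 4.37 ± 0.71. Egr2 rose by 3.64 ± 0.56, Bhlhe40 by 3.53 ± 0.39, and Ppargc1b, a coactivator of genes for mitochondria, by 3.08 ± 0.26. Klf4 went from 2.09, 0.76, 2.1 and 2.11 to 4.76, 5.20, 5.14 and 4.09 and Myc from -0.62, -3.22, -0.66 and -1.01 to 1.60, 1.81, 1.63 and 0.97, and in both the M0 array of the 4th set was the lowest. Pparg, the lipid-sensing receptor, rose by 1.36 ± 0.39 and Atf3 by 1.43 ± 0.25. Maf, a factor of tissue-resident macrophages, fell by 1.93 ± 0.33, from 4.02, 4.53, 4.60 and 4.70 to 1.70, 2.74, 2.51 and 3.18.

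Among secreted proteins and enzymes of the M2 state, 16 of 22 measured genes rose and 1 fell (median 2.29). These genes are known as IL-4 targets, so the list was composed with its direction in mind. Retnla, the resistin-like protein Fizz1, was at -0.17, 4.11, 2.29 and 0.61 in M0 and 6.92, 7.27, 6.91 and 6.90 in M2. The M2 arrays were nearly equal, whereas the M0 arrays spread over more than 4 log2 units. The rise was 5.29 ± 1.41 (limma adjusted p = 0.0155), and without KO M0 replicate 1 it was not called (limma adjusted p = 0.0501). The chitinase-like Chil3 (Ym1) rose from 1.80, 5.15, 4.32 and 2.81 to 6.63, 6.95, 6.43 and 6.71 by 3.16 ± 0.79, and its relative Chil4 by 5.50 ± 0.77. Their sequences are alike, and probes may not tell them apart. Slc7a2, a carrier of arginine into the cell, went from -3.62, -3.05, -4.30 and -3.87 to 1.05, 0.83, 0.72 and 1.70, 27.6-fold. The scavenger receptor Olr1 rose by 4.63 ± 0.57 with 3 M0 arrays well above background, fibronectin (Fn1) by 4.07 ± 0.61, and cholesterol 25-hydroxylase (Ch25h) by 3.04 ± 0.94 (limma adjusted p = 0.0353). F13a1, the A chain of coagulation factor XIII and often listed as an M2 gene, fell by 2.87 ± 0.83 with overlapping groups (-0.50, 3.59, 1.94 and 1.29 against -2.41, -1.43, -2.20 and 0.87).

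The eosinophil-associated ribonucleases rose together on the arrays, but their sequences are close relatives and signals may be shared. Rnase2a went from -3.01, 1.70, 0.37 and -0.59 to 4.94, 6.27, 6.24 and 6.11, Ear12 from -3.20, 1.82, 0.95 and -0.56 to 4.46, 5.83, 5.80 and 5.85 and Ear2 from -1.97, 2.97, 1.73 and 0.38 to 3.61, 5.46, 5.28 and 6.24, with rises of 6.27 ± 0.87, 5.73 ± 0.94 and 4.37 ± 0.95. In all of them replicate 1 was the lowest array of M0 and of M2. Ear6 was not called (2.68 ± 1.19). Eosinophils carry these proteins too, so their granule genes were read beside them. Prg2, major basic protein, was at -2.31, 2.77, 2.17 and 1.19 in M0 and -2.34, 1.87, 1.14 and 1.79 in M2, and Epx, eosinophil peroxidase, at -7.50, -1.70, -3.08 and -3.72 and -7.83, -3.15, -3.44 and -2.42. Replicate 1 was also the lowest array of each group for both, and neither differed between the states past the threshold. In the list of mast cell, basophil and eosinophil markers 1 of 16 measured genes rose, the lectin Siglecf (1.57 ± 0.27), and 0 fell. The summed linear level of the list was 2.06 to 11.4 times the 75th percentile in M0 and 2.68 to 10.3 times in M2. The part of such cells in the rise of Ear genes was not tested.

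Of 29 genes listed as surface receptors of the IL-4 response, 15 rose and 2 fell (median 1.27). This list was chosen with IL-4 targets in mind and with earlier results of these data known. Its counts therefore say nothing about surface receptors in general. The galactose-binding lectins Mgl2 and Clec10a rose by 2.03 ± 0.24 and 2.67 ± 0.59. Mgl2 went from 3.65, 4.29, 3.74 and 3.99 to 5.87, 5.91, 6.12 and 5.88. Its dimmer probe differed far more, by 8.35 in KO (limma adjusted p = 4.66e-08 over probes) and 10.02 in WT, so the size of the rise depends on the probe. Cd209e, of the DC-SIGN family, was well above background on no M0 array and on 3 M2 arrays, at least 3.71-fold higher (limma adjusted p = 0.0038, and 0.0508 with normexp background correction). The cytokine receptor Il27ra rose by 2.73 ± 0.44 and Cd274 (PD-L1) by 1.48 ± 0.23. The mannose receptor Mrc1, a widely used M2 marker, was at 4.96, 5.65, 5.32 and 5.35 in M0 and 5.92, 6.16, 6.03 and 6.38 in M2. All M2 arrays were above all M0 arrays, but the difference of 0.80 ± 0.44 did not pass over the whole fit (limma adjusted p = 0.249) and did without the 4th set (limma adjusted p = 0.0381). Clec4n (dectin-2), a receptor of fungal sugars, fell by 3.14 ± 0.49, from 2.70, 4.21, 3.21 and 2.69 to 0.39, -0.49, -0.85 and 1.19.

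The chemokine list held 5 rises and 2 falls among 23 measured genes, with a median of 0.052. Ccl17, which draws T helper 2 cells through Ccr4, went from -6.38, -5.56, -7.29 and -6.70, with 2 arrays well above background, to -0.47, -1.13, -1.22 and 0.067, a rise of 5.79 ± 0.62. Ccl24 (eotaxin 2) went from -1.95, -0.97, -1.32 and -1.39 to 3.55, 2.81, 2.34 and 4.05, 24.1-fold (limma adjusted p = 3.65e-07). Ccl22, the other Ccr4 ligand, was not well above background on any M0 array and was on 3 M2 arrays, at least 2.97-fold higher (limma adjusted p = 0.00197, and 0.109 with normexp background correction). Ccl12 rose by 1.71 ± 0.33. Cxcl10, a ligand of Cxcr3 induced by interferons, fell by 2.12 ± 0.53, from 0.75, -0.087, -1.70 and -1.55 to -2.33, -2.99, -3.70 and -2.05, and Ccl1 fell by 0.93 ± 0.19 with 2 M2 arrays well above background. The groups of Cxcl10 do not overlap. Without the 4th set 10 chemokines rose and 6 fell.

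Of 13 measured receptors for chemokines and related attractants 5 fell. Cx3cr1, the fractalkine receptor, had the largest fall of all named genes. It was at 3.27, 2.2, 3.69 and 3.49 in M0 and -2.44, -1.31, -1.37 and -1.86 in M2, with a gap of over 3 between the groups. The fall of 4.91 ± 0.73 (limma adjusted p = 9.99e-05) is 30.1-fold. The complement receptor C5ar1 fell by 1.44 ± 0.17, the formyl peptide receptor Fpr1 by 1.80 ± 0.54 and Cxcr4 by 0.95 ± 0.25.

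The other large falls were in surface proteins of several kinds. Gpr82 and Gpr162, receptors with no settled ligand, fell by 4.67 ± 0.65 and 3.90 ± 0.44, and Gpr82 was well above background on 1 M2 array. Adgre4, an adhesion receptor of the F4/80 family, went from -0.86, 1.02, 0.38 and -0.15 to -5.51, -4.18, -4.57 and -2.38. Fcrl1, an Fc receptor-like protein known from B cells, went from -0.40, -0.37, -0.64 and -0.48 to -4.79, -4.71, -4.99 and -3.76 and fell by 4.09 ± 0.24 (limma adjusted p = 8.52e-10). The ADP receptor P2ry13 fell by 3.69 ± 0.32, Ms4a6b by 3.53 ± 0.53, and the chemokine receptor Cxcr3 by 3.45 ± 0.36. The Wnt inhibitor Dkk2, the ubiquitin ligase component Asb2 and the junction protein Cgn fell by 3.44 ± 0.63, 3.41 ± 0.54 and 3.38 ± 0.90, each well above background on 1 M2 array. Itga8, an integrin chain, fell by 3.29 ± 0.53. The phosphatase Ppm1n was not well above background on any M2 array and was at least 2.35-fold lower.

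The differences within the sets show how far the 4th set weighs on these genes. In sets 1 to 3 both KO arrays lie on 1 slide, whereas in the 4th set they lie on slides 1 and 3. A difference between slides was therefore not separated from the 4th set. Of the 30 genes with the largest rises and falls, 22 had their smallest difference in the 4th set, 10 of the rises and 12 of the falls. For Arg1 the differences were 8.19, 7.58, 8.48 and 6.00 in sets 1 to 4, and for Socs1 6.02, 5.98, 5.55 and 4.68. For Cx3cr1 they were -5.71, -5.01, -4.86 and -4.06. The sign within sets was fixed by the choice of genes whose groups do not overlap.

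**Figure D2:**
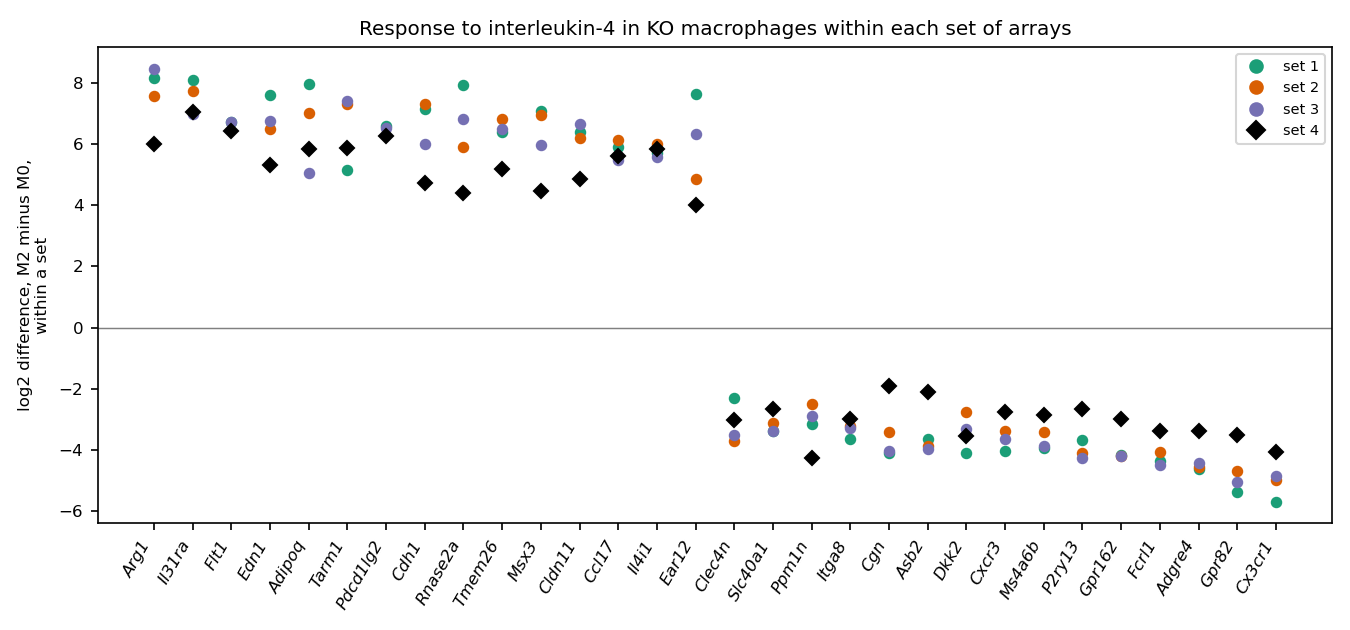
Log2 difference KO M2 minus KO M0 within each of the 4 sets of arrays for the 30 genes with the largest rises and falls, 1 point per set and black diamonds for the 4th set. No point crosses 0, which the choice of genes with groups that do not overlap required, and 22 of the 30 genes have their smallest difference in the 4th set.

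Genes of cell fusion were read because IL-4 makes macrophages fuse into giant cells. Of 19 genes of fusion and osteoclasts, 4 rose and 1 fell. Ocstamp went from -3.45, -3.83, -4.0 and -3.85 to 2.54, 1.01, 1.26 and 0.14, a rise of 5.02 ± 0.58. Dcstamp, the other fusion receptor of this pair, rose by 2.82 ± 0.92 (limma adjusted p = 0.0462) with overlapping groups. Itgb3, the beta chain of the vitronectin receptor, rose by 3.33 ± 0.30 and the proton pump subunit Atp6v0d2 by 1.4 ± 0.24. Nfatc1, the leading transcription factor of osteoclasts, fell by 0.82 ± 0.17.

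Genes of antigen presentation by MHC class II rose. Of 13 genes 9 rose and 0 fell. The median difference was 1.53, and it lay between 1.26 and 1.77 in the single sets. Ciita, the master activator of the class, went from 0.82, 1.45, 0.093 and -0.35 to 3.30, 2.32, 2.44 and 3.09. Ciita rose by 2.29 ± 0.36, and its groups do not overlap. H2-DMa and H2-DMb2, which load peptides, rose by 2.3 ± 0.25 and 2.23 ± 0.28. The invariant chain Cd74 rose by 2.09 ± 0.40, H2-Aa by 1.77 ± 0.44 and H2-Ab1 by 1.65 ± 0.43. Of 12 class I genes 2 rose and 0 fell (median 0.13).

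Of 27 measured inflammatory genes 2 rose and 7 fell (median -0.20), against 6.36% higher and 7.42% lower among all genes. Nfkbiz, a nuclear partner of NF-kB, went from 0.41, 1.13, 1.06 and 0.25 to -2.66, -2.12, -2.98 and -1.77, a fall of 3.09 ± 0.31 (limma adjusted p = 8.06e-07). The bacterial lipoprotein receptor Tlr2 fell by 2.34 ± 0.26, the RNA receptor Tlr7 by 1.13 ± 0.28, Il10 by 1.56 ± 0.49, Il18 by 1.13 ± 0.24 and the inflammasome sensor Nlrp3 by 1.11 ± 0.28. The costimulatory receptor Cd40 and the growth factor Csf1 rose by 1.41 ± 0.23 and 1.29 ± 0.38. Nos2, the nitric oxide synthase of M1 cells that competes with arginase, was at -2.50, -0.62, -2.69 and -2.82 and -1.09, -1.32, -1.90 and -0.068 and was not called (limma adjusted p = 0.139).

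Among interferon-stimulated genes the calls were falls. Of 29 measured, 0 rose and 5 fell, with a median of -0.84. Oas2, which makes the activator of RNase L, was at 2.78, 4.74, 2.87 and 2.75 in M0 and -0.020, 0.49, -0.18 and 2.65 in M2. The arrays of the 4th set were the highest of both groups, and the fall was 2.55 ± 0.58. Ifit3 fell by 2.94 ± 0.86, Ifit1 by 2.22 ± 0.69, Mx2 by 1.82 ± 0.55 and Xaf1 by 1.02 ± 0.31. Without the 4th set 15 of these genes fell and 2 rose, and with the set as a block 9 fell and 1 rose.

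**Figure D3:**
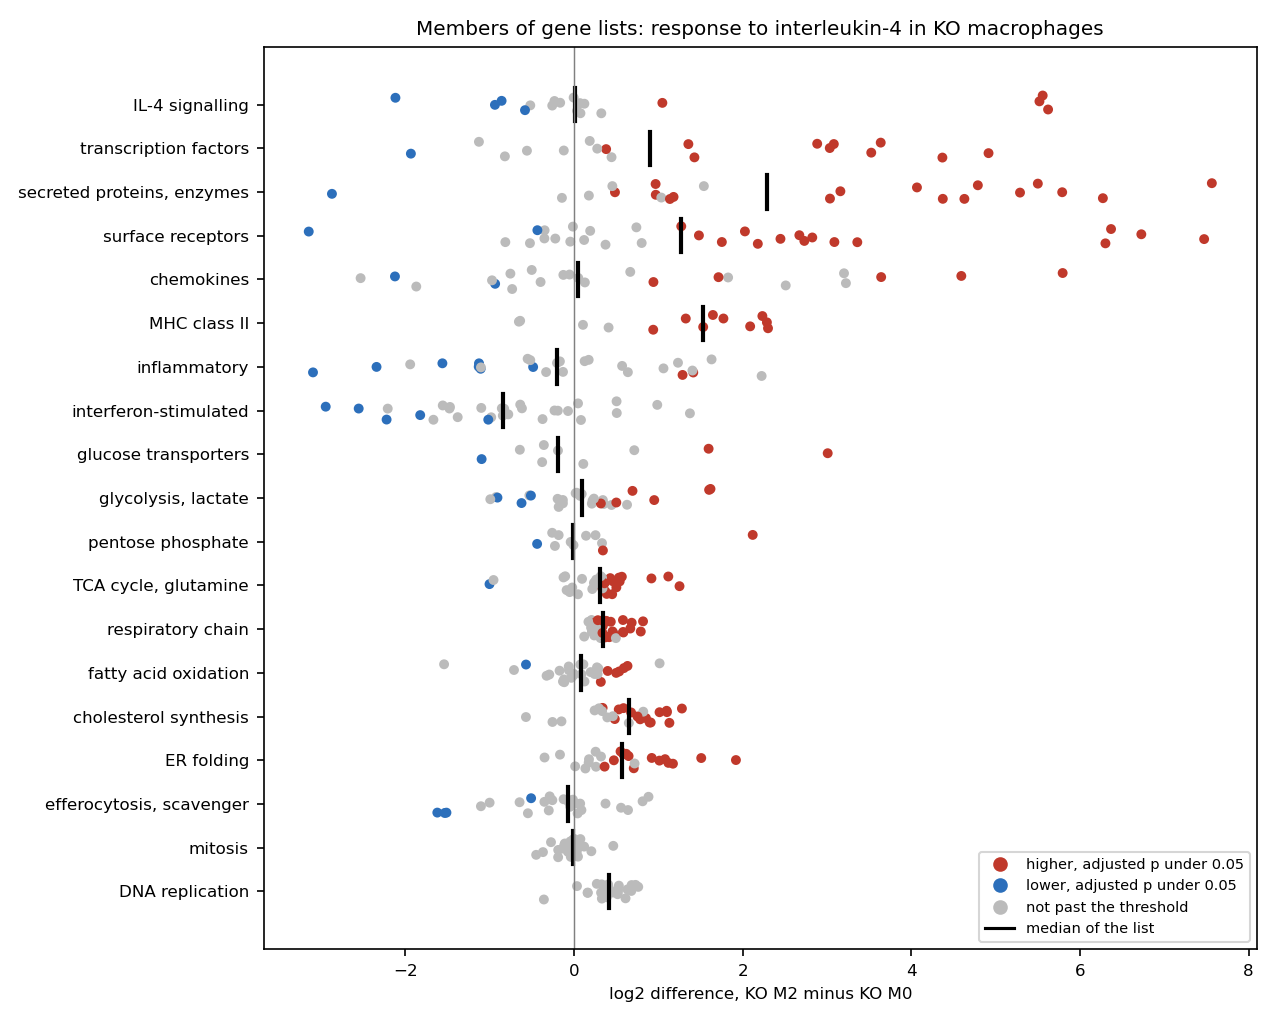
Log2 difference KO M2 minus KO M0 of every measured member of 19 gene lists, 1 point per gene, red where called higher, blue where called lower, with a black bar at the median of the list. MHC class II has 9 red points of 13, the respiratory chain 21 of 35, and mitosis none.

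Glucose carriers matter here because the main one is the target of the deletion. Of 9 measured, 2 rose and 1 fell. Slc2a4 (GLUT4), the insulin-regulated carrier of muscle and fat, was at -5.80, -6.91, -6.24 and -5.10 in M0, with 3 arrays well above background, and at -3.10, -2.89, -2.98 and -3.04 in M2. All M2 arrays were higher, and the rise was 3.01 ± 0.44 (limma adjusted p = 7.45e-05). Slc2a6 (GLUT6), a carrier of inner membranes of the cell, went from 3.18, 1.91, 1.97 and 2.41 to 4.47, 3.82, 3.84 and 3.72, a rise of 1.60 ± 0.24. Slc2a3 (GLUT3) went from -0.31, -0.26, 0.22 and 0.053 to -1.77, -0.76, -1.12 and -1.01, a fall of 1.09 ± 0.31 (limma adjusted p = 0.0232).

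In glycolysis and lactate handling 6 of 27 genes rose and 3 fell, and the median was 0.092. Pfkp, a form of phosphofructokinase, went from 2.57, 1.73, 2.3 and 2.41 to 4.00, 3.94, 4.04 and 3.51, and rose by 1.62 ± 0.21. The lactate carrier Slc16a1 (MCT1) rose by 1.60 ± 0.17 and hexokinase 2 (Hk2) by 0.95 ± 0.21. Eno1 and Ldha rose by 0.50 ± 0.14 and 0.32 ± 0.10. Pfkfb3, which makes the activator of phosphofructokinase, fell by 0.91 ± 0.28 and the muscle form Pfkm by 0.62 ± 0.19. Txnip, known to rise with glucose through MondoA and to restrain its uptake, fell by 1.01 ± 0.29. Of its relatives, Arrdc3 fell by 1.29 ± 0.35 and Arrdc4 was not called (-0.046 ± 0.29, limma adjusted p = 0.936). Of 9 genes of the MondoA list 2 fell and 0 rose. In the pentose phosphate list 2 of 11 rose and 1 fell. Prps1, which makes phosphoribosyl pyrophosphate for nucleotides, went from 1.36, 0.55, 1.14 and 1.11 to 2.65, 3.20, 2.71 and 4.07, a rise of 2.12 ± 0.31, and G6pdx, the entry enzyme of the pathway, fell by 0.44 ± 0.13. In the hexosamine list 0 of 14 rose and 1 fell, where 6.36% of all genes were called higher and 7.42% lower.

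Many genes of mitochondrial oxidation rose, by small amounts. In the tricarboxylic acid cycle and glutamine list 14 of 34 genes rose and 1 fell (median 0.31). In the respiratory chain list 21 of 35 rose and 0 fell (median 0.35, and 0.29 to 0.41 in single sets). With quantile normalization 11 genes of the tricarboxylic acid list and 16 of the respiratory chain list rose. Idh3a, a subunit of isocitrate dehydrogenase, went from 1.74, 0.42, 1.37 and 1.27 to 2.79, 2.41, 2.56 and 2.06, a rise of 1.25 ± 0.28. The glutamine carrier Slc1a5 rose by 1.12 ± 0.31, citrate synthase (Cs) by 0.46 ± 0.11 and Sdha by 0.43 ± 0.10. The calls of Cs and Sdha were lost with quantile normalization. Glul, which makes glutamine, fell by 1.00 ± 0.31. Uqcrc1, of complex III, was at 4.15, 3.83, 4.02 and 4.09 in M0 and 4.89, 4.81, 4.80 and 4.77 in M2, groups that do not overlap for a rise of 0.79 ± 0.10. Cytochrome c (Cycs) rose by 0.82 ± 0.24, Cyc1 by 0.67 ± 0.091 and the ATP synthase subunit Atp5d by 0.68 ± 0.093. Among 30 genes of fatty acid oxidation 6 rose and 1 fell (median 0.083). Crat, Etfa and Hadha rose by 0.64 ± 0.10, 0.59 ± 0.12 and 0.50 ± 0.11, and the lipid receptor Ppard fell by 0.57 ± 0.18 (limma adjusted p = 0.0408).

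Genes of sterol synthesis rose. Of 25 genes 15 rose and 0 fell (median 0.65). Mvd, of the mevalonate pathway, went from 0.018, 0.56, -0.20 and -0.090 to 1.42, 1.02, 1.11 and 1.86, a rise of 1.28 ± 0.19 (limma adjusted p = 0.000122). Idi1 and Fdft1 rose by 1.01 ± 0.19 and 0.90 ± 0.15, and the later enzymes Sqle, Cyp51 and Dhcr7 by 1.1 ± 0.27, 1.13 ± 0.22 and 1.1 ± 0.23. Among 20 genes of the sterol receptor LXR and of fatty acid synthesis 5 rose and 2 fell. The desaturase Scd2 and the sterol exporter Abcg1 rose by 1.64 ± 0.41 and 1.25 ± 0.20, whereas Mylip, which degrades the LDL receptor, and Apoc2 fell by 1.26 ± 0.27 and 1.92 ± 0.33.

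Genes of protein folding in the endoplasmic reticulum rose too, with 14 of 24 genes higher and 0 lower (median 0.57). The disulfide isomerase Pdia4 went from -0.17, -0.50, -0.27 and -0.15 to 1.51, 1.83, 1.58 and 1.67, a rise of 1.92 ± 0.16 (limma adjusted p = 9.35e-08). Sdf2l1, Hyou1, Creld2, Manf and Calr, all chaperones or their partners, rose by 1.51, 1.17, 1.12, 1.08 and 1.01. In the list of amino acid genes under ATF4 3 of 24 rose and 2 fell, beside 6.36% and 7.42% of all genes. The cystine carrier Slc7a11 rose by 1.97 ± 0.52 and Phgdh, which opens the serine pathway, by 1.63 ± 0.51, while Sesn2 and the lipoprotein receptor Vldlr fell by 0.55 ± 0.16 and 1.26 ± 0.34. Among 20 genes of arginine and polyamines 4 rose and 1 fell. Beside Arg1 and Slc7a2 these included Ass1, which rebuilds arginine from citrulline, with 1.3 ± 0.30, and Smox, which oxidises spermine, fell by 1.00 ± 0.28. Odc1, which makes putrescine, was not called (0.46 ± 0.26).

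Iron genes changed at the points of entry and exit. Tfrc, the transferrin receptor that takes iron in, went from 1.90, 2.23, 1.19 and 1.26 to 4.56, 4.19, 4.19 and 4.95, a rise of 2.83 ± 0.29 (limma adjusted p = 1.19e-06). Slc40a1, ferroportin, the exporter of iron, went from 3.90, 5.12, 4.74 and 4.67 to 0.51, 1.61, 1.27 and 2.44, a fall of 3.15 ± 0.43 (limma adjusted p = 3.57e-05). Aco1, the iron-sensing aconitase, rose by 0.92 ± 0.10, and Ncoa4, which sends ferritin to the lysosome, and the iron carrier Slc11a1 fell by 0.73 ± 0.22 and 0.90 ± 0.15. Of 18 iron genes 2 rose and 3 fell. In the hypoxia list 1 of 19 rose, which was Bhlhe40, and 4 fell, Ndrg1 by 1.06 ± 0.32. In the NRF2 list 1 of 25 rose and 4 fell, Sod1 by 0.68 ± 0.12.

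Clearance receptors and lipid mediators gave falls in several named genes. Of 27 genes of dead-cell clearance and scavenging 0 rose and 4 fell. Stab1, Gas6 and Cd93 fell by 1.62 ± 0.17, 1.53 ± 0.28 and 1.51 ± 0.25. Among Fc gamma receptors and their partners the inhibitory Fcgr2b rose, from 3.13, 4.70, 3.40 and 3.22 to 4.98, 5.36, 5.21 and 5.58, and the high-affinity Fcgr1 fell, from 3.27, 3.90, 3.16 and 2.76 to 0.90, 1.52, 0.75 and 2.67. The differences were 1.67 ± 0.38 and -1.81 ± 0.41, and neither pair of groups overlaps. Of 20 genes of prostaglandins and leukotrienes 4 rose and 4 fell. The cyclooxygenase Ptgs1 rose by 1.18 ± 0.27 and the prostaglandin E receptor Ptger2 by 1.2 ± 0.27. The prostaglandin D synthase Hpgds fell by 2.14 ± 0.17 and Hpgd, which inactivates prostaglandins, by 2.53 ± 0.76. Among 19 matrix proteases and inhibitors 2 rose and 2 fell, Timp1 with 1.63 ± 0.32 and Mmp14 with -2.09 ± 0.59. Of 28 lysosome genes 4 rose and 0 fell. For these lists too, 6.36% of all genes were called higher and 7.42% lower.

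The lists of mitosis and DNA replication held no gene called by limma. In the mitosis list 0 of 25 rose and 0 fell (median -0.015, 0 at an unadjusted p under 0.05), and the proliferation antigen Mki67 differed by 0.048 ± 0.30. In the DNA replication list 0 of 25 rose and 0 fell, although 24 had a positive difference (median 0.41, and 0.20 to 0.58 in single sets) and 0 had an unadjusted p under 0.05. With the set as a block 1 replication gene was called higher. Mcm2, of the replicative helicase, differed by 0.76 ± 0.39 (limma adjusted p = 0.223). Of 16 cyclins, kinases and inhibitors 2 fell, Cdkn1b (p27) by 0.81 ± 0.15 and Rb1 by 0.51 ± 0.15.

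The cells carried macrophage markers in both states. Csf1r, the M-CSF receptor, was at 6.13, 6.71, 6.59 and 6.63 and 6.76, 6.85, 6.64 and 6.74, Adgre1 (F4/80) at 6.33, 6.54, 6.40 and 6.71 and 6.27, 6.58, 6.30 and 6.54, and Itgam and Spi1 were well above background on all 8 arrays. Of 16 macrophage markers 0 rose and 5 fell: Cx3cr1, Cd14 (-2.09 ± 0.34), Fcgr1, Lyz2 and Mpeg1 (-0.62 ± 0.18). The summed linear level of the list, in multiples of the 75th percentile, was 776 to 984 in M0 and 741 to 884 in M2. Of 12 dendritic cell markers 3 rose, Batf3, the integrin Itgax (2.45 ± 0.22) and Zbtb46 (1.09 ± 0.25, limma adjusted p = 0.054 with normexp). The 2 that fell were Tcf4 (-0.97 ± 0.18) and Itgae (-0.85 ± 0.24), which were not part of the checks of named genes below. Flt3 and Clec9a, which mark dendritic cells, were at -5.49, -4.52, -5.55 and -4.01 and -7.02, -6.25, -6.75 and -7.55 in M2. Flt3 was well above background on 7 of the 8 KO arrays. Clec9a was on 2 of the 8 and on none of the 4 M2 arrays. Neither was called (-0.039 ± 0.33 and -0.10 ± 0.49). The summed level of that list was 42.8 to 57.1 in M0 and 55.6 to 68.8 in M2. Among neutrophil, lymphoid, stromal and erythroid markers the called genes were Chil3 and Adipoq, out of 17, 12, 13 and 4 measured, and Ly6g, a neutrophil surface protein, was not called (-0.72 ± 0.70). The summed level of the stromal list was 15.7 to 25.1 in M0 and 18.6 to 26.0 in M2, and that of the neutrophil list 108 to 339.6 and 192 to 386. The part of other cells in these changes was not tested.

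Calls near the threshold turned on single arrays. Of the 171 called genes checked, 39 lost the call when 1 KO array was left out, among them Cgn as the only one of the 30 with the largest changes. Leaving out KO M0 replicate 1 gave the highest limma adjusted p of 0.0501 for Retnla. Omission of KO M0 replicate 2 gave the highest limma adjusted p of 0.175 for Dcstamp, 0.156 for Phgdh, 0.143 for Xaf1, 0.141 for Ifit1, 0.141 for Pfkfb3, 0.141 for Glul, 0.123 for Mx2, 0.121 for Fpr1, 0.113 for Ch25h, 0.11 for Ifit3, 0.106 for Cycs, 0.101 for F13a1, 0.0926 for Pparg, 0.0874 for Txnip, 0.087 for Eno1, 0.0765 for Sesn2, 0.0764 for Arrdc3, 0.0659 for Vldlr, 0.064 for Il4ra and 0.0582 for Pik3r1. Leaving out KO M0 replicate 3 gave the highest limma adjusted p of 0.13 for Ldha and 0.119 for Il10. Omission of KO M0 replicate 4 gave the highest limma adjusted p of 0.0834 for Ndrg1. Leaving out KO M2 replicate 1 gave the highest limma adjusted p of 0.128 for Hpgd, 0.115 for Ppard, 0.11 for Rb1, 0.108 for Csf1, 0.0939 for Ncoa4, 0.0925 for Slc2a3, 0.0798 for Mpeg1, 0.073 for Slc1a5, 0.0625 for Cgn and 0.0594 for Cxcr4. Omission of KO M2 replicate 2 gave the highest limma adjusted p of 0.112 for Pfkm. Leaving out KO M2 replicate 3 gave the highest limma adjusted p of 0.102 for G6pdx, 0.0953 for Mmp14, 0.0676 for Smox and 0.0581 for Lyz2. Without the 4th set Cxcr4, Eno1, Hpgd, Ldha, Olfr1101, Pfkfb3, Pik3r1, Ppard and Sesn2 were not called, with limma adjusted p from 0.0509 for Ppard to 0.0937 for Eno1. With normexp background correction the calls of Ccl22, Cd209e, Zbtb46, Pfkm (limma adjusted p = 0.0593) and Rb1 (limma adjusted p = 0.0999) were lost. With the mean of all probes in place of the brightest, Il4ra differed by -0.44 (limma adjusted p = 0.458), Mx2 differed by -1.53 (limma adjusted p = 0.359), Pparg differed by 1.34 (limma adjusted p = 0.315), Crat differed by 0.79 (limma adjusted p = 0.283), Cxcl10 differed by -0.98 (limma adjusted p = 0.234), Cycs differed by 0.58 (limma adjusted p = 0.204), Glul differed by -0.90 (limma adjusted p = 0.0983), Xaf1 differed by -0.82 (limma adjusted p = 0.0787), Rb1 differed by -0.51 (limma adjusted p = 0.0679), Sdha differed by 0.45 (limma adjusted p = 0.0648) and Cd247 differed by -0.68 (limma adjusted p = 0.0624). Probes of a gene also differed in size: other probes gave 2.92 for Socs2, -2.13 for Gpr82, 0.17 for Cxcl10 and 3.21 for Zbtb46. The groups of Ass1, Dcstamp, F13a1, Fpr1, Glul, Ifit1, Ifit3, Il10, Il4ra, Lyz1, Lyz2, Mmp14, Mpeg1, Phgdh, Ppard, Txnip, Vldlr and Xaf1 overlap although the genes were called

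Whether the deletion of GLUT1 altered the response was asked by setting it against that of the WT cultures. The WT response had 3983 called genes, 15.5% of those tested, with 6.7% higher and 8.83% lower. Of the genes called in KO, 2833 were also called in WT in the same direction, 80.1% of the KO list and 71.1% of the WT list, and 3513 of 3536 had the same sign in WT. Across 25644 genes, which are not independent replicates, the responses had Pearson r = 0.855 and Spearman rho = 0.789. The KO and WT responses use separate arrays, but the sets on the slides are shared.

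The test of the difference itself, KO response minus WT response, called 0 genes in limma (0% of those tested), with 250 genes at an unadjusted p under 0.05. That is well below the 1 in 20 of the 25644 genes that chance gives at this threshold. The 250 genes are therefore no sign of a genotype difference, and the 0 calls do not show equal responses. Why so few genes reached the threshold was not tested. The median SE of this difference was 0.32, which limits what single genes can show. Cd247 and Olfr1101 were among the genes of smallest p. Cd247, the zeta chain of the T cell receptor, differed by -1.04 in KO and 0.014 in WT, a difference of -1.05 ± 0.27 with a 95% interval of -1.62 to -0.48 (limma adjusted p = 1). The odorant receptor Olfr1101 (limma adjusted p = 1) was well above background on the 4 KO M0 arrays and on none of the KO M2 or WT arrays, and no fold is given. Its call between KO M2 and KO M0 was lost without the 4th set (limma adjusted p = 0.062).

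Retnla had a KO response of 5.29 and a WT response of 11.74, a difference of -6.45 with a 95% interval of -10.63 to -2.28 (limma adjusted p = 1). The M2 levels of the genotypes overlap and the M0 levels lie mostly apart. WT M0 was at -8.71, -5.75, -4.95 and 0.39, with 3 of 4 arrays well above background, against -0.17, 4.11, 2.29 and 0.61 in KO M0. WT M2 was at 7.05, 6.90, 6.96 and 7.04. Prg2, the eosinophil gene, was at -0.99, 2.08, 1.67 and 1.63 in WT M0, a range inside that of KO M0. Chil3, by contrast, responded by 3.16 in KO and 3.12 in WT.

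On its brighter probe Lyz2 fell in KO and differed by 0.0099 in WT. WT was at 7.02, 7.13, 7.25 and 7.0 in M0 and 7.18, 6.97, 7.17 and 7.12 in M2, above every KO array. The Retnla M2 arrays of both genotypes stood at a similar height, and compression of the brightest signals was not tested. The dimmer Lyz2 probe differed by -1.48 in KO and by -0.95 in WT, so the gap between the genotypes was smaller there. On the brighter probe the difference of the responses was -1.42 ± 0.53 (limma adjusted p = 1). Lyz1 gave -1.05 in KO and 0.031 in WT. Without the 4th set the difference for Lyz1 was -1.02, the 1 gene that then passed (limma adjusted p = 0.049). Cre is inserted in this locus in KO only, so an effect of the allele and of the deletion of Slc2a1 cannot be told apart. Cxcl10 fell in KO on its brighter probe and differed by 0.021 in WT (difference -2.14, limma adjusted p = 1).

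Arg1 was at 0.39, 0.14, 0.19 and 0.48 in WT M0 and 6.94, 6.55, 7.04 and 6.63 in WT M2. Its response was 7.56 in KO and 6.49 in WT, and the difference of 1.07 had a 95% interval of -0.036 to 2.18 (limma adjusted p = 1). Slc2a1 responded by 0.72 in KO and 0.61 in WT, with an interval of the difference of -0.88 to 1.1. The medians of lists were 1.53 in KO and 1.29 in WT for MHC class II, 0.35 and 0.41 for the respiratory chain, 0.65 and 0.62 for cholesterol synthesis, and 0.092 and 0.014 for glycolysis. Of the 30 genes with the largest changes in KO, 30 had the same sign in WT and 29 were called there. The gene not called was Cgn (-2.29 in WT, limma adjusted p = 0.0961).

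**Figure D4:**
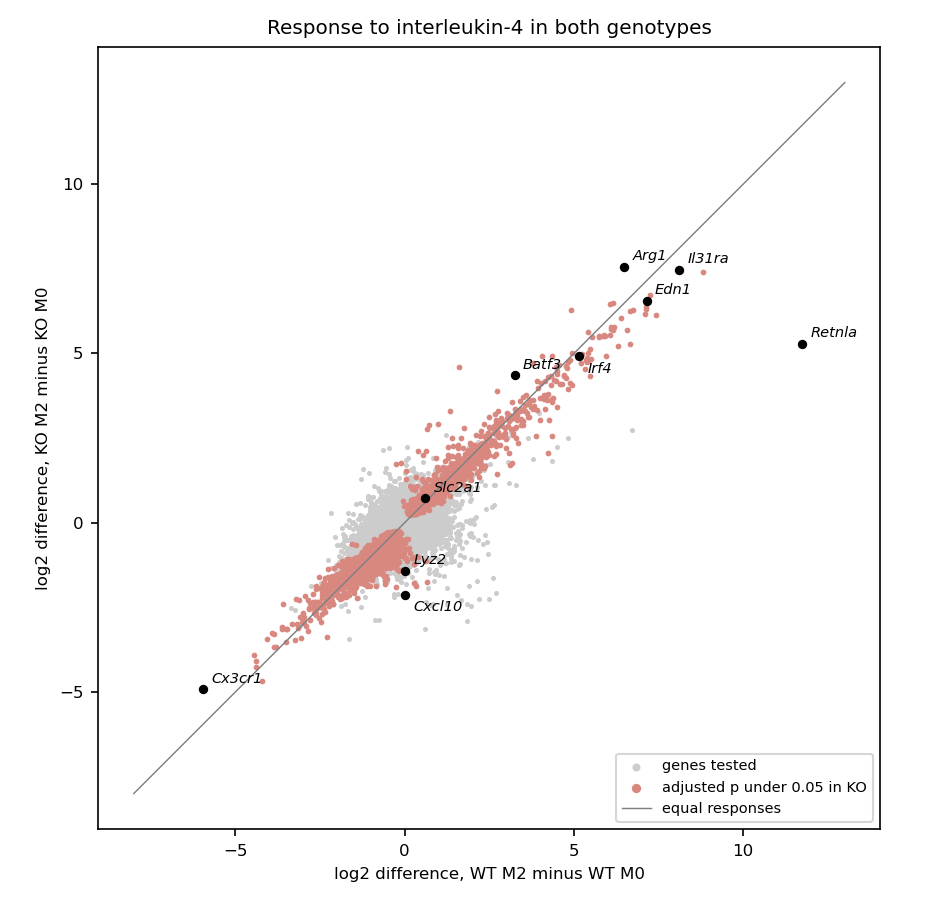
Log2 difference M2 minus M0 in KO (vertical) against WT (horizontal) for the 25644 genes tested, red where called in KO, with the line of equal responses and 10 genes named. Points follow the line (r = 0.855), and Retnla lies far to the right of it at 11.74 in WT and 5.29 in KO.

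**Figure D5:**
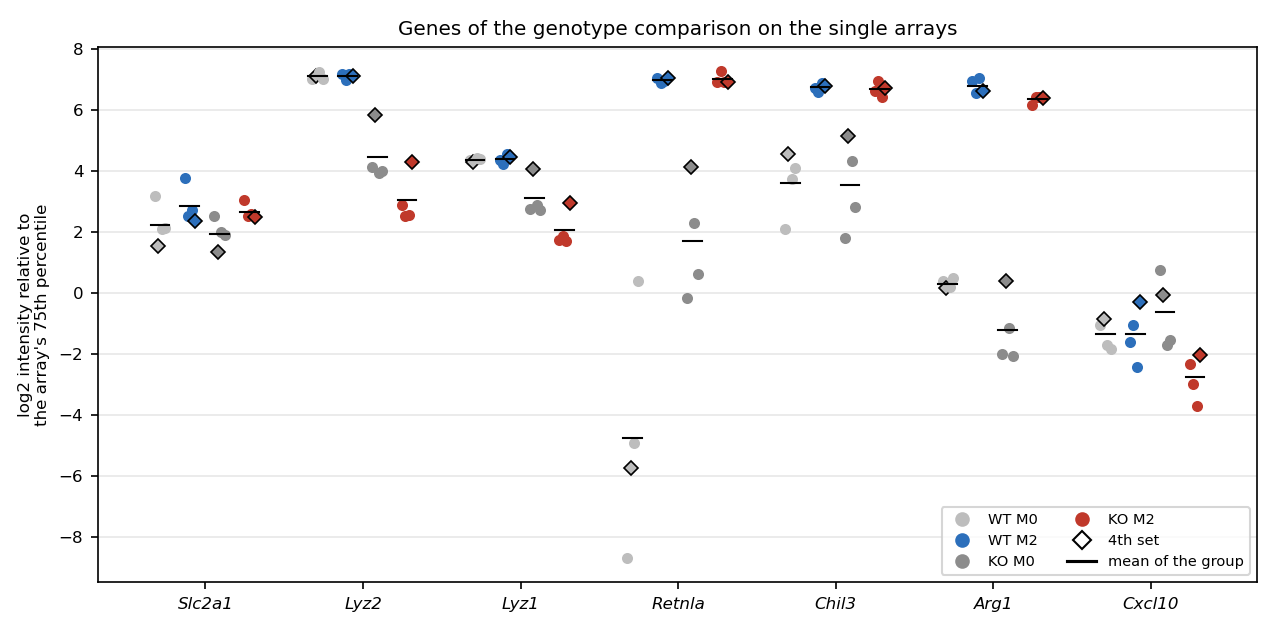
Log2 intensity relative to the array's 75th percentile on each array of WT M0, WT M2, KO M0 and KO M2 for 7 genes, with bars at group means and diamonds for the 4th set. On its brighter probe Lyz2 is lower on every KO array than on every WT array, and Retnla spreads widely over the M0 arrays of both genotypes while all M2 arrays lie near 7.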

How the data were processed

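RNA of the cultures was labelled with Cy3 and hybridised to Agilent mouse arrays, per the labels' protocols. The deposited scanner files give the processed signal, an intensity in linear units that the authors' software had background-subtracted and detrended within the array but not normalized between arrays, per the file headers. Agilent Feature Extraction 10.7.3.1 is named in the headers and 9.1 in the submitters' processing notes. The series value table was not used here. Of 62976 spots, 3671 were controls and 0 gene spots were saturated.

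Outlier spots were left out, spots of a probe averaged, and log2 intensity taken relative to the 75th percentile of the array's gene spots. Probes well above background on at least 4 of 24 arrays were kept (38856 of 56605), and the brightest stood for its gene. Names came from the files, 32994 probes through a RefSeq gene table. Where no array of a group was well above background, a bound of the fold is given. limma 3.58.1 (R 4.3.3) was fitted to all 24 arrays with 1 mean per group (18 residual degrees of freedom), tested on simulated data, with figures from matplotlib 3.10.9. The number of arrays limits the precision. Alternatives were other scalings, filters, blocks, array subsets and leaving out each array.

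Named genes were Slc2a1, Lyz2, the 15 largest called rises and falls with groups that do not overlap, with a bright higher group and a gene name, up to 5 called genes each way per list, genes of smallest p for the genotype difference, and sex-linked genes. Some genes that the rule selects are not reported here. Mrc1, Stat6, Nos2, Odc1 and other members that did not pass are given by values only, and Lyz1, Cxcl10, Retnla and Arg1 in the genotype comparison were chosen after their values were seen. The members and the 43 lists were chosen with earlier results of these data known.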

Additional observations from a re-analysis of the deposited data

Results flagged for a closer look

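Of 396 groups of 4 arrays examined for the named genes, 40 held an array far from the other 3, by Dixon's ratio of the gap to the nearest array over the range of the group, at its 95% critical value. Chance gives this in about 1 in 20 groups. In 27 of them the array was the one of the 4th set. The 27 include the sex-linked Xist, Ddx3y, Eif2s3y, Uty and Kdm5d, which were named as a check of the arrays and raise this count. KO M0 replicate 2 was the highest array for Lyz2 (5.82, the others 3.91 to 4.14), Lyz1 (4.08, the others 2.73 to 2.87), Tmem26 (-2.68, the others -4.61 to -4.37), Gpr82 (-1.72, the others -2.83 to -2.69), Ms4a6b (3.46, the others 2.11 to 2.28), Oas2 (4.74, the others 2.75 to 2.87), Mx2 (0.62, the others -1.39 to -1.21) and Nos2 (-0.62, the others -2.82 to -2.50). KO M0 replicate 2 was the lowest array for Ptpn6 (4.37, the others 4.44 to 4.45), Klf4 (0.76, the others 2.09 to 2.11), Myc (-3.22, the others -1.01 to -0.62), C5ar1 (3.26, the others 3.68 to 3.72), Etfa (3.52, the others 3.74 to 3.76), Odc1 (0.72, the others 1.43 to 1.56), Ndrg1 (2.46, the others 3.56 to 3.71), Ddx3y (-8.95, the others -1.05 to -0.77), Eif2s3y (-8.85, the others 1.3 to 1.48) and Uty (-7.97, the others -2.91 to -2.45). KO M2 replicate 4 was the highest array for Lyz1 (2.95, the others 1.71 to 1.85), Gpr162 (0.42, the others -1.72 to -1.36), Crat (4.11, the others 3.89 to 3.92), Xist (-1.21, the others -8.18 to -7.35) and Kdm5d (-1.0, the others -1.40 to -1.35). KO M2 replicate 4 was the lowest array for Nlrp3 (-5.43, the others -5.0 to -4.99), Ddx3y (-8.63, the others -1.01 to -0.78), Eif2s3y (-8.51, the others 1.37 to 1.59) and Uty (-8.02, the others -3.16 to -2.82).

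The other arrays that stood apart were these. KO M0 replicate 1 was the highest array for Ptgs1 (3.56, the others 2.90 to 3.00). KO M0 replicate 1 was the lowest array for Hpgd (0.50, the others 2.03 to 2.24). KO M2 replicate 1 was the highest array for Slc2a6 (4.47, the others 3.72 to 3.84). KO M2 replicate 1 was the lowest array for Rnase2a (4.94, the others 6.11 to 6.27), Ear12 (4.46, the others 5.80 to 5.85), Gas6 (3.58, the others 4.37 to 4.45) and Atp6v0d2 (4.81, the others 5.11 to 5.14). KO M2 replicate 2 was the highest array for Retnla (7.27, the others 6.90 to 6.92) and Hyou1 (-2.44, the others -3.04 to -2.98). KO M2 replicate 3 was the highest array for Mgl2 (6.12, the others 5.87 to 5.91). KO M2 replicate 3 was the lowest array for Ccl1 (-6.31, the others -5.90 to -5.86). WT M0 replicate 1 was the lowest array for Prg2 (-0.99, the others 1.63 to 2.08). WT M2 replicate 1 was the lowest array for Prg2 (-1.01, the others 1.18 to 1.56). None of these values was left out of the fit.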

How the results depend on the processing

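The 3536 calls in KO became 6207 without the filter on dim probes, 6164 with the set as a block, 1845 at an adjusted p under 0.01 and 1437 with at least 2-fold added, and lay between 2501 and 3573 with 1 array left out. Those of WT became 6634 with the set block, 6031 without the 4th set, 2219 in a fit of the WT arrays alone, 2201 and 1618 at the stricter thresholds, and 3012 to 4685 with 1 array left out. The difference of the responses had 1 call without the 4th set and 0 to 0 with 1 array left out. The cause was not tested.

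The replicate number as a block gave 4167 calls in KO, 4588 in WT and 0 for their difference. Deviations of same-numbered KO arrays correlated at 0.56, -0.47, 0.22 and -0.44 for replicates 1 to 4, so the numbers do not pair the arrays. Those of arrays of 1 set correlated at 0.56, 0.41, 0.30 and 0.78 for sets 1 to 4.

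Of 171 called genes checked, 118 stayed called under every alternative run, and 0 changed sign. The call was lost for 36 in a fit of the KO arrays alone, 11 with the mean of all probes, 10 with outlier spots kept, 9 without the 4th set, 6 with the slide as a block, 5 with quantile normalization and 5 with normexp. Of 24 genes not called, some changed sign. Stat6 (0.037) gave -0.0078 with quantile normalization and -0.0038 with normexp background correction. Mki67 (0.048) gave -0.058 with quantile normalization, -0.054 without the 4th set and -0.17 to 0.17 with 1 array left out. Prg2 (-0.34) gave -1.43 to 0.64 with 1 array left out. Epx (-0.21) gave -1.38 to 1.00 with 1 array left out. Flt3 (-0.039) gave 0.17 with quantile normalization and -0.33 to 0.22 with 1 array left out. Clec9a (-0.10) gave 0.36 with quantile normalization, 0.18 with mean of all probes of a gene, 0.34 without the 4th set and -0.40 to 0.12 with 1 array left out. Xist (0.26) gave -0.097 with quantile normalization, -0.35 with normexp background correction and -1.38 to 2.04 with 1 array left out. Ddx3y (0.14) gave -1.86 to 2.08 with 1 array left out. Eif2s3y (0.14) gave -2.42 to 2.64 with 1 array left out. Uty (-0.25) gave -1.58 to 1.02 with 1 array left out. Signals near background limit the size of differences for dim probes.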
